A study of Oryctolagus cuniculus with 30 samples.

Results

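T and natural killer (NK) cell genes were followed in rabbit vocal fold mucosa as 10 symbols, namely CD3D, CD3E, CD247, CD8A, LCK, CD2, CD28, CTLA4, IL2RA and IL2RB. They were chosen by symbol with earlier results of these data known. The shares over all genes set beside them below are therefore a description and no test of the set. Of the 10 symbols, 9 were matched to a row among the 31346 genes of the count table. CD3D was followed under LOC100356153, the row whose gene ID the RefSeq table pairs with that symbol, and its values are given apart from those of the 9 and are not counted with them.

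T cells recognise antigen through a receptor that signals by way of the CD3 chains and the zeta chain, and the kinase LCK, held at the coreceptors CD4 and CD8, starts that signal. CD28 adds a costimulatory signal, CTLA4 competes for the same ligands and restrains it, and interleukin 2 received through IL2RA and IL2RB drives the growth of activated and regulatory T cells. NK cells share CD247, LCK, CD2 and IL2RB with T cells, so these genes do not tell the 2 cell types apart. Lymphocytes live in the epithelium and lamina propria of mucosal tissues and gather there after injury.

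The tissue came from 15 New Zealand white rabbits, with 5 groups of 3 animals, and each animal gave 1 library from its left and 1 from its right vocal fold, 30 libraries in all. Control animals had neither injury nor injection. In the other 4 groups the superficial mucosa of both folds had been stripped. The group injury_only received nothing further, while 3 groups were injected with 20 µL in each fold 7 days after it. The injected material was collagen type I (Col1), VFLP (man) or VFLP (au). The latter are hydrogels, called VFLP_man and VFLP_au here, which the series title describes as derived from the lamina propria of vocal folds. Tissue of the injured groups was taken 28 days after treatment. The day from which this runs in injury_only, and the time for control, were not established here. The labels give no age of the animals, and the labelled tissue is whole dissected mucosa, not sorted cells. All 6 control libraries and 5 of 6 injury_only libraries carry batch label C, and the other injury_only library (right fold of animal 1) and all 18 libraries of the materials carry batch label D.

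Gene reads per library ranged from 14.2 to 31.9 M around a median of 22.7 M, and 11 to 946 of them fell on the 9 genes together. A count of 3 reads corresponded to 0.0842 to 0.358 CPM (reads of a gene scaled to a common library total), so control levels of several members lay near the limit of detection, and this limit covers counting error only. The markers of mucosa were present in every animal, with 14 squamous epithelial genes at a summed 12900 to 37500 CPM and the fibroblast genes at 1060 to 6800 CPM. A set of 24 skeletal muscle genes took 1.6% to 9.3% of gene reads in control libraries and 0.00905% to 3.19% in libraries of the injured groups. In control, the right folds held 45, 11 and 13 reads of the 9 genes in animals 1, 2 and 3, and the left folds 81, 32 and 95. The muscle share of the same right libraries was 7.66%, 9.3% and 7.46%, and that of the left 1.6%, 6.66% and 4.06%. The part of muscle in the results below was not tested beyond the fits that carry it as a covariate. In whole tissue, fewer cells of a type and less RNA per cell cannot be told apart. Levels below are CPM of the 2 folds of an animal summed, scaled by TMM factors.

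**Figure D1:**
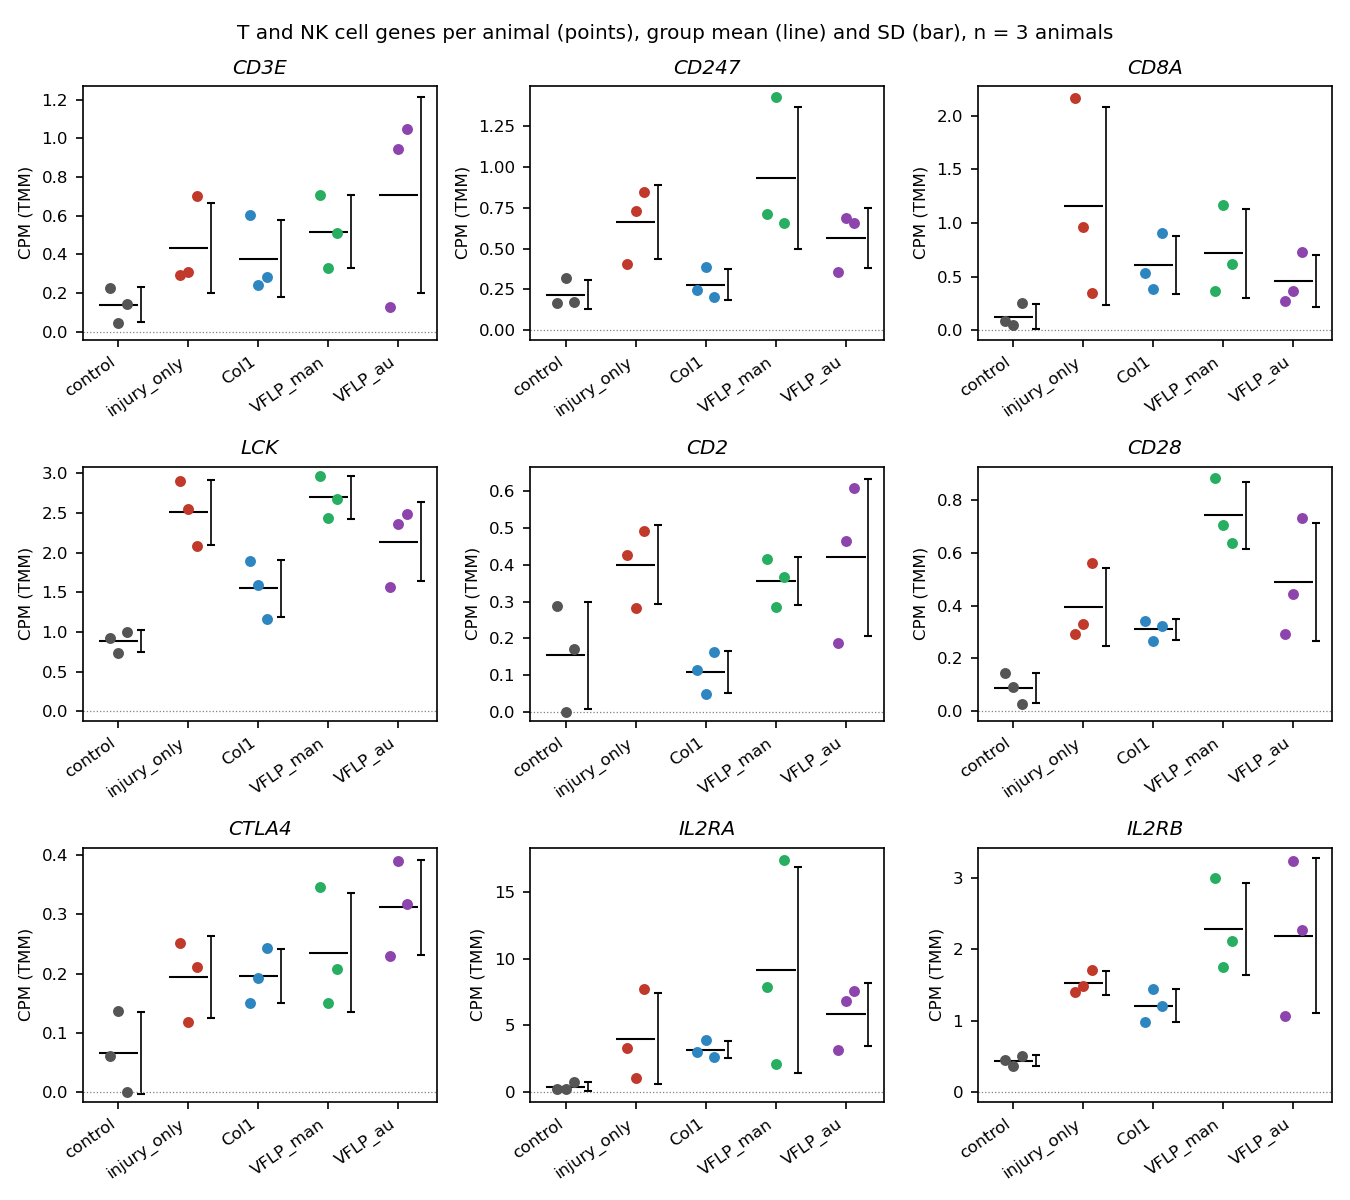
Level in CPM (y axis) of each of the 9 genes in the 5 groups, with 1 point per animal, a line at the group mean and a bar for the SD over 3 animals. The 3 control animals lie lowest or among the lowest in most panels, and IL2RA spreads widest within a group, from 2.15 to 17.4 CPM in VFLP_man.

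Injured folds without injection held more CD8A, CD28, CD247, LCK, IL2RA and IL2RB RNA than uninjured folds, while CD3E, CD2 and CTLA4 did not pass the test. By edgeR, 6 of the 9 genes passed an adjusted p of 0.05 and all 6 rose, against 8.33% of 17815 genes tested that rose. The 3 injury_only animals lay above all 3 control animals for 7 of the 9 genes, as they did for 20.5% of all genes tested. The median log2 fold change of the 9 was 1.72 against 0.02 over all genes. This fit carries a term for batch, under which the batch D library of injury_only adds nothing to the contrast. The number of genes passing was 6 by DESeq2 and 3 by limma voom on the 30 libraries, against 30.8% and 18.2% of all genes in either direction.

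Of the receptor complex, the zeta chain gene CD247 carries the signalling motifs of the receptor into the cell. CD247 stood at 0.165, 0.32 and 0.171 CPM in the 3 control animals and at 0.407, 0.731 and 0.845 CPM in injury_only. The groups did not overlap, and CD247 rose by 1.72 ± 0.47 (SE) on the log2 scale, or 3.3-fold (adjusted p = 0.022). CD3E, the epsilon chain, stood at 0.227, 0.0457 and 0.143 CPM in control and at 0.291, 0.307 and 0.704 CPM in injury_only. These groups did not overlap either, but the log2 fold change of 1.61 ± 0.77 did not pass (adjusted p = 0.15). LOC100356153 (CD3D, the delta chain) stood at 0.269, 0.183 and 0.343 CPM in control and at 0.485, 0.283 and 0.587 CPM in injury_only, which overlapped (log2 fold change 0.68 ± 0.57, adjusted p = 0.41).

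CD8A encodes the alpha chain of the coreceptor of cytotoxic T cells, which some NK cells also carry. The 6 control libraries held 14 reads of it in all, giving 0.0827, 0.0457 and 0.257 CPM per animal. Injury_only stood at 2.17, 0.967 and 0.352 CPM, all above control but far apart, and animal 3 had 15 reads in its left fold and 0 in its right. CD8A rose by 3.25 ± 0.83 on the log2 scale (9.53-fold, adjusted p = 0.017). Without injury_only animal 1 the log2 fold change was 2.3 (adjusted p = 0.078), and without control animal 2 it was 2.88 (adjusted p = 0.076). CD8B, the beta chain of the same coreceptor, was named after its values were seen. It was too low to be tested, at a mean of 0.139 CPM in control and 0.101 CPM in injury_only.

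LCK, the kinase that starts the receptor signal, had the smallest adjusted p of the 9 genes. Control stood at 0.93, 0.731 and 0.999 CPM and injury_only at 2.91, 2.55 and 2.09 CPM, with no overlap. LCK rose by 1.46 ± 0.27 on the log2 scale (2.76-fold, adjusted p = 0.0041). It passed with each animal of the 2 groups left out in turn. Right folds alone gave a log2 fold change of 3.16 (adjusted p = 0.01) and left folds alone gave 0.70 (adjusted p = 0.18). The right control folds held 13, 0 and 4 reads of LCK. Whether its side difference varied among the 5 groups did not pass by edgeR (adjusted p = 0.087), while DESeq2 called it.

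The costimulatory receptor CD28 stood at 0.145, 0.0914 and 0.0286 CPM in control, from 10 reads in all, and at 0.291, 0.33 and 0.563 CPM in injury_only. The groups did not overlap, and CD28 rose by 2.32 ± 0.52 on the log2 scale (5-fold, adjusted p = 0.0098). Its counterpart CTLA4, which lies next to it in the RefSeq gene order, had 6 reads over the control libraries and stood at 0.062, 0.137 and 0 CPM there. In injury_only it stood at 0.252, 0.118 and 0.211 CPM, overlapping control (log2 fold change 1.66 ± 0.75, adjusted p = 0.13). CD2, an adhesion receptor of T and NK cells, stood at 0.289, 0 and 0.171 CPM in control and at 0.427, 0.283 and 0.493 CPM in injury_only. Control animal 1 lay just above injury_only animal 2, and the log2 fold change of 1.02 ± 0.75 did not pass (adjusted p = 0.35).

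IL2RB and IL2RA both rose. IL2RB, the signalling chain that also serves interleukin 15, stood at 0.455, 0.365 and 0.514 CPM in control and at 1.4, 1.49 and 1.71 CPM in injury_only. Its groups were far apart and tight, and IL2RB rose by 1.72 ± 0.39 on the log2 scale (3.3-fold, adjusted p = 0.01). IL2RA, the chain that gives the receptor its high affinity and marks activated and regulatory T cells, stood at 0.248, 0.228 and 0.799 CPM in control. In injury_only it stood at 3.33, 1.04 and 7.7 CPM, so that its highest animal was far above its lowest, and the right fold of animal 3 alone gave 265 reads against 63 in the left. IL2RA rose by 3.21 ± 0.86 on the log2 scale (9.27-fold, adjusted p = 0.021). Without injury_only animal 3 the log2 fold change was 2.31 (adjusted p = 0.077), and it also did not pass without control animal 1 or 2 (adjusted p = 0.058 and 0.091).

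Leaving out control animal 2 lowered the number of genes passing in this comparison from 6 to 3, while the number over all genes fell from 3933 of 17815 to 1733 of 18180. CD247 did not pass without control animal 1, control animal 3 or injury_only animal 3 (adjusted p = 0.06, 0.071 and 0.06), nor did IL2RB without control animal 2 (adjusted p = 0.054). With the muscle level as a covariate only CD247 of the 9 passed (log2 fold change 2.5, adjusted p = 0.036), and over all genes 985 of 17815 passed. In that fit the other 5 genes that had risen kept positive log2 fold changes of 1.36 to 3.59 (adjusted p = 0.056 to 0.1). Muscle levels of control and injury_only animals do not overlap, at 51600 to 123000 CPM against 9510 to 22600 CPM. In left folds alone 0 of the 7 genes tested passed by edgeR, 5 of them at an unadjusted p under 0.05, and 0 of all 16601 genes passed. In right folds alone 6 of the 8 tested passed (CD247, IL2RB, IL2RA, LCK, CD3E and CD28), and 4348 of 16576 genes overall. Other tools were not applied to one side alone.

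**Figure D2:**
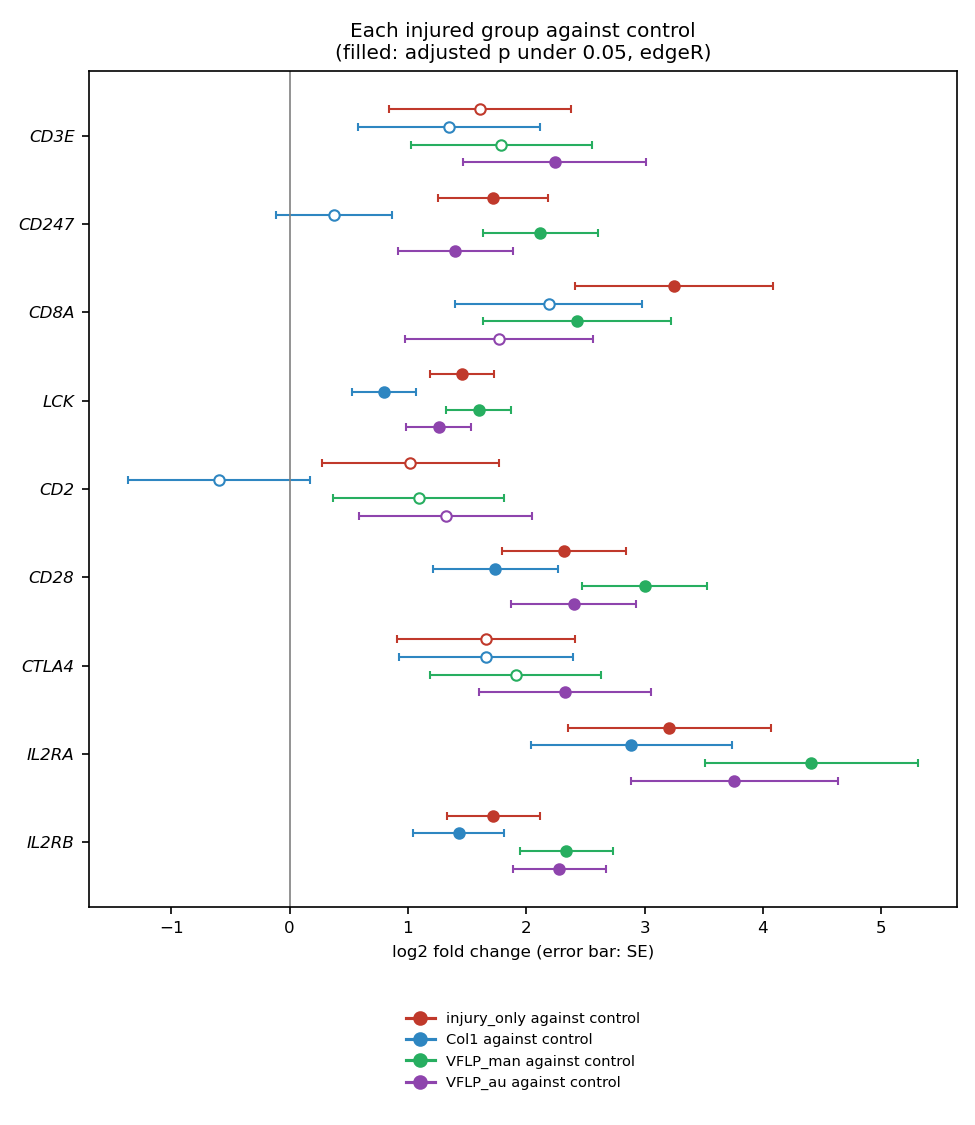
Log2 fold change (x axis) with its standard error (bar) of each of the 9 genes (y axis) against control, for injury_only and for each of the 3 materials, filled where the adjusted p is under 0.05. All points lie right of 0 except CD2 in Col1 at a log2 fold change of -0.60. The 4 comparisons share the 3 control animals.

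Each material was also set against control. These comparisons share the 3 control animals with each other and with the one above, and batch and group cannot be told apart in them. With Col1, 4 of 9 genes passed and rose (CD28, LCK, IL2RA and IL2RB), against 13.5% of 17770 genes that rose. With VFLP_man, 6 rose (CD8A, CD28, CD247, LCK, IL2RA and IL2RB), against 16.7% of all genes. With VFLP_au, 7 rose (CTLA4, CD28, CD247, LCK, IL2RA, CD3E and IL2RB), against 10.8% of all genes. Median log2 fold changes of the 9 genes were 1.43, 2.12 and 2.24 in that order, against 0.12, 0.13 and 0.11 over all genes. With a batch term, whose estimate rests on 1 injury_only library, 0 of the 9 passed by edgeR in each of the 3 comparisons, with 1, 5 and 5 at an unadjusted p under 0.05 for Col1, VFLP_man and VFLP_au, and over all 17815 genes 0, 29 and 0 passed. With the muscle level as a covariate it was again 0 of 9 in each by edgeR, with 1, 3 and 5 at an unadjusted p under 0.05, and 0 of all 17770 genes passed in each. Both terms were tried in edgeR only. Without them, DESeq2 called 5, 7 and 7 of the 9 (37.6%, 43.1% and 33.5% of all genes in either direction) and limma voom 1, 5 and 3 (36.1%, 42% and 29.9%).

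IL2RA had the largest changes of the set in all 3 materials. It stood at 3.05, 3.9 and 2.65 CPM in Col1, at 7.85, 2.15 and 17.4 CPM in VFLP_man and at 3.16, 6.86 and 7.54 CPM in VFLP_au. Every one of these 9 animals lay above every control animal. The log2 fold changes were 2.89 ± 0.85 in Col1 (adjusted p = 0.021), 4.41 ± 0.90 in VFLP_man (adjusted p = 0.0025) and 3.76 ± 0.88 in VFLP_au (adjusted p = 0.009).

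IL2RB stood at 0.984, 1.44 and 1.21 CPM in Col1, at 2.99, 1.75 and 2.11 CPM in VFLP_man and at 1.07, 3.23 and 2.27 CPM in VFLP_au. It rose by 1.43 ± 0.39, 2.34 ± 0.39 and 2.28 ± 0.39 on the log2 scale (adjusted p = 0.014, 0.00072 and 0.0022). LCK stood at 1.89, 1.59 and 1.17 CPM in Col1, at 2.97, 2.44 and 2.68 CPM in VFLP_man and at 1.57, 2.36 and 2.49 CPM in VFLP_au. None of these animals overlapped control, and LCK rose by 0.80 ± 0.27, 1.60 ± 0.28 and 1.26 ± 0.27 on the log2 scale (adjusted p = 0.04, 0.00087 and 0.0065).

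CD28 stood at 0.34, 0.265 and 0.324 CPM in Col1, at 0.882, 0.707 and 0.638 CPM in VFLP_man and at 0.293, 0.445 and 0.732 CPM in VFLP_au. Its 3 groups lay above control without overlap, with log2 fold changes of 1.74 ± 0.53, 3.00 ± 0.53 and 2.40 ± 0.53 (adjusted p = 0.025, 0.0011 and 0.0073). CTLA4 stood at 0.151, 0.192 and 0.243 CPM in Col1, at 0.346, 0.151 and 0.207 CPM in VFLP_man and at 0.23, 0.39 and 0.317 CPM in VFLP_au. All 9 of these animals lay above control, but only VFLP_au passed (log2 fold change 2.33 ± 0.73, adjusted p = 0.032, against 0.1 for Col1 and 0.055 for VFLP_man). Whether CTLA4 differs between the materials is given with the comparisons of materials below.

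CD247 stood at 0.246, 0.385 and 0.202 CPM in Col1, where it overlapped control and did not pass (log2 fold change 0.37 ± 0.49, adjusted p = 0.59). It stood at 0.709, 1.43 and 0.654 CPM in VFLP_man and at 0.355, 0.686 and 0.659 CPM in VFLP_au, rising by 2.12 ± 0.49 and 1.40 ± 0.49 on the log2 scale (adjusted p = 0.0052 and 0.049). CD8A stood at 0.53, 0.385 and 0.911 CPM in Col1, at 0.363, 1.17 and 0.622 CPM in VFLP_man and at 0.272, 0.371 and 0.732 CPM in VFLP_au. It lay above control in all 9 animals and passed in VFLP_man (log2 fold change 2.43 ± 0.79, adjusted p = 0.03), with adjusted p values of 0.052 in Col1 and 0.11 in VFLP_au.

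CD3E stood at 0.605, 0.24 and 0.283 CPM in Col1, at 0.709, 0.331 and 0.511 CPM in VFLP_man and at 0.125, 0.946 and 1.05 CPM in VFLP_au. It passed in VFLP_au alone of the 3 (log2 fold change 2.24 ± 0.77, adjusted p = 0.048), although VFLP_au animal 1 lay below control animal 1. Its adjusted p was 0.2 in Col1 and 0.084 in VFLP_man. CD2 stood at 0.113, 0.0481 and 0.162 CPM in Col1, at 0.415, 0.286 and 0.367 CPM in VFLP_man and at 0.188, 0.464 and 0.61 CPM in VFLP_au, each group overlapping control (adjusted p = 0.58, 0.25 and 0.19). LOC100356153 (CD3D) passed in none of the 3 (adjusted p = 0.92, 0.12 and 0.14).

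The counts against control depended on single animals for Col1 and VFLP_au. With VFLP_man 5 to 6 genes passed with each animal left out in turn (24.5% to 37.3% of all genes). Without control animal 2, 0 of the 9 passed with Col1 by edgeR (4 at an unadjusted p under 0.05, and 20.2% of all genes passing). There were 2 without control animal 1 or Col1 animal 1, against 34.3% and 24.9% of all genes. With VFLP_au 4 genes passed without control animal 3, without VFLP_au animal 2 or without VFLP_au animal 3 (19.8%, 16.8% and 20.9% of all genes). With the library of lowest total left out (right fold of control animal 2), 4 passed with VFLP_au (25.2% of all genes). In the reported fits 32.1% of all genes passed with Col1 and 27.5% with VFLP_au, in either direction.

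Against injury_only, no material passed for any of the 9 genes. For Col1 this was 0 of 9 by edgeR, with 3 at an unadjusted p under 0.05, and 0% of all genes passed. It was 0 of 9 by DESeq2 (2.08% of all genes) and 0 of 8 by limma voom (0.0182%). For VFLP_man it was 0 of 9 by edgeR with 0 at an unadjusted p under 0.05, against 1.06% of all genes. DESeq2 gave 0 of the 8 with an adjusted p (7.07% of all genes) and limma voom 0 of 8 (0.0668%). For VFLP_au it was 0 of 9 by edgeR with 0 at an unadjusted p under 0.05, against 0% of all genes. Here DESeq2 gave 0 of the 7 with an adjusted p (1.1% of all genes) and limma voom 0 of 8 (0.0182%). The sizes are given with their errors because a p above the threshold does not show that levels were equal, and batch and group cannot be told apart here either.

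With Col1, CD247, LCK and CD2 lay below all 3 injury_only animals, as did 10.8% of all genes tested. Their log2 fold changes were -1.25 ± 0.47, -0.70 ± 0.27 and -1.85 ± 0.74 (adjusted p = 0.29, 0.3 and 0.31). The median over the 9 genes was -0.34. With VFLP_man, IL2RB and CD28 lay above all 3 injury_only animals, with log2 fold changes of 0.57 ± 0.37 and 0.91 ± 0.46 (adjusted p = 0.47 and 0.34), and the median was 0.26. Of all genes tested 11.6% lay above injury_only in this way. With VFLP_au no gene was free of overlap with injury_only and the median was 0.31. CD8A had a lower mean in all 3 materials than in injury_only, at 0.608 ± 0.272, 0.72 ± 0.414 and 0.458 ± 0.242 CPM against 1.16 ± 0.925 CPM (SD, n = 3), with overlap in each (adjusted p = 0.54, 0.69 and 0.43).

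**Figure D3:**
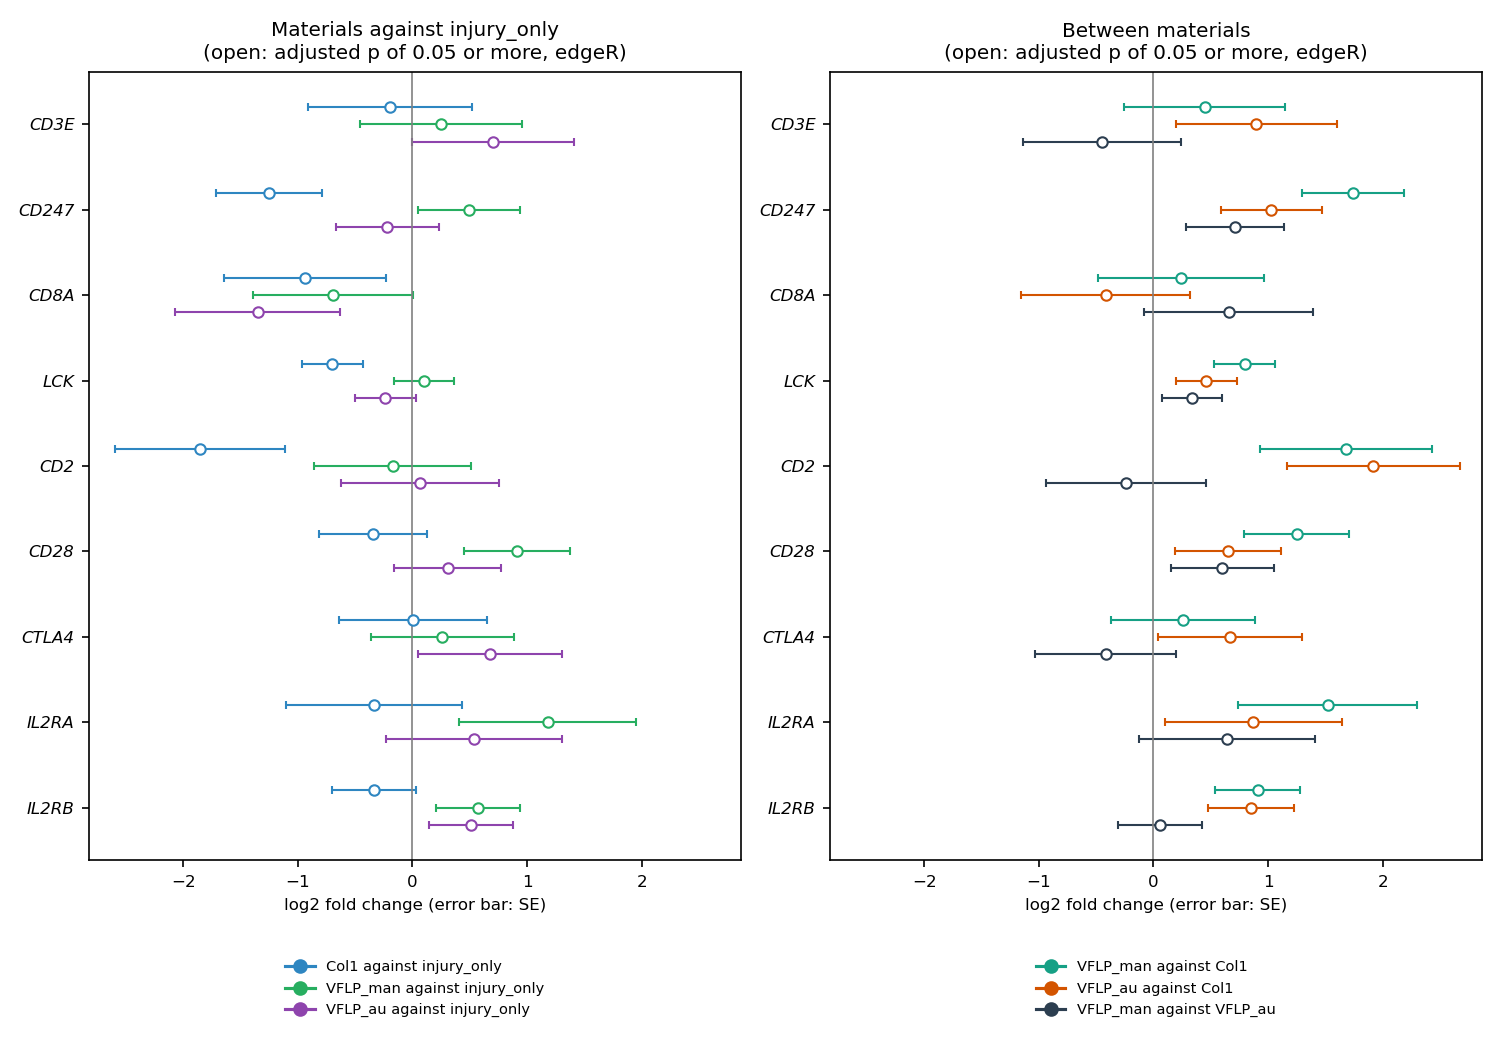
Log2 fold change (x axis) with its standard error (bar) of each of the 9 genes (y axis), for each material against injury_only and for the materials against each other. None of the points passed an adjusted p of 0.05. In VFLP_man against Col1 all 9 genes lie right of 0.

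The 3 injected materials were compared among themselves within batch D. VFLP_man was higher than Col1 in the fit for 9 of 9 genes, and its animals lay above all Col1 animals for 5 of them (CD247, LCK, IL2RB, CD2 and CD28), as for 6.71% of all genes tested. By edgeR 0 passed (5 at an unadjusted p under 0.05, which 10.3% of all genes reached, and 0 by limma voom), against 0% of all genes. DESeq2 called 1 of the 9, CD247, and 389 of 17815 genes overall. CD247 had the largest log2 fold change of the 5 that did not overlap, at 1.74 ± 0.44 (adjusted p = 0.23), followed by CD2 at 1.68 ± 0.75 (adjusted p = 0.47), CD28 at 1.25 ± 0.46 (adjusted p = 0.37), IL2RB at 0.91 ± 0.37 (adjusted p = 0.43) and LCK at 0.80 ± 0.26 (adjusted p = 0.32). The median over the 9 genes was 0.91 against -0.01 over all genes.

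VFLP_au against Col1 also gave 0 of 9 by edgeR (3 at an unadjusted p under 0.05), against 0% of all genes. DESeq2 called 0 of 9 (0.196% of all genes) and limma voom 0 of 8 (0.0668%). CD2 was the 1 gene without overlap (4.82% of all genes tested lay higher in this way), at a log2 fold change of 1.92 ± 0.76 (adjusted p = 0.99), and CTLA4 was at 0.67 ± 0.63 (adjusted p = 0.99). VFLP_man against VFLP_au gave 0 of 9 by edgeR (0 at an unadjusted p under 0.05), against 0.0505% of all genes. DESeq2 and limma voom each called 0 of 8, against 2.2% and 0.176% of all genes. The largest log2 fold change by edgeR in this comparison was CD247 at 0.71 ± 0.43 (adjusted p = 0.73), and every gene overlapped. CTLA4 between the 2 hydrogels was at -0.42 ± 0.62 (adjusted p = 0.89). The test for any difference among the 3 materials called 0 of 9 by edgeR (CD247 and LCK at an unadjusted p under 0.05), against 0% of all genes. DESeq2 called 0 of 9 there (2.45% of all genes) and limma voom 0 of 8 (0.255%). Across all 5 groups the edgeR test called 5 of 9 (CD28, CD247, LCK, IL2RA and IL2RB), against 28.4% of all genes, and batch and group cannot be told apart there.

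Reads of the members were next set against reads of 12 pan-leukocyte genes of the same animal, as a description with no test. In this measure, IL2RA was kept apart because its SD in CPM was the largest in every group, though not always relative to its mean. The other 8 genes had 23.2, 23.2 and 24.6 reads per 1000 pan-leukocyte reads in control and 36.9, 36 and 34.3 in injury_only. The values were 30.3, 21 and 40.4 in Col1, 52.4, 55.6 and 57.6 in VFLP_man and 45.9, 46.1 and 53.4 in VFLP_au. Both hydrogel groups thus lay above the other 9 animals, and the Col1 animals ranged from below control to above injury_only. LCK and IL2RB gave the most reads of the 8 in every group, so the measure weighs them most. Batch and group cannot be told apart where the materials are set beside control or injury_only. The pan-leukocyte sum itself was 74.7 to 102 CPM in control and 188 to 221 CPM after injury alone, and among the materials 112 to 217 CPM with Col1, 135 to 179 CPM with VFLP_man and 89.3 to 193 CPM with VFLP_au.

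IL2RA per 1000 pan-leukocyte reads was 2.44, 3.06 and 8.61 in control and 15.1, 5.52 and 37.9 in injury_only. It was 19, 18 and 23.7 in Col1, 43.8, 14.5 and 129 in VFLP_man and 35.3, 35.6 and 45.4 in VFLP_au. The share of the reads of the 9 genes that fell on IL2RA was 9.52%, 11.6% and 25.9% in control, and 69.1% in VFLP_man animal 3, the highest of all animals. IL2RA had more reads than IL2RB in every animal other than control animals 1 and 2 and injury_only animal 2, with a ratio of 0.545 to 1.56 in control and 2.39, 0.698 and 4.49 in injury_only. These ratios compare read counts and not copies, since gene length is not corrected for.

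**Figure D4:**
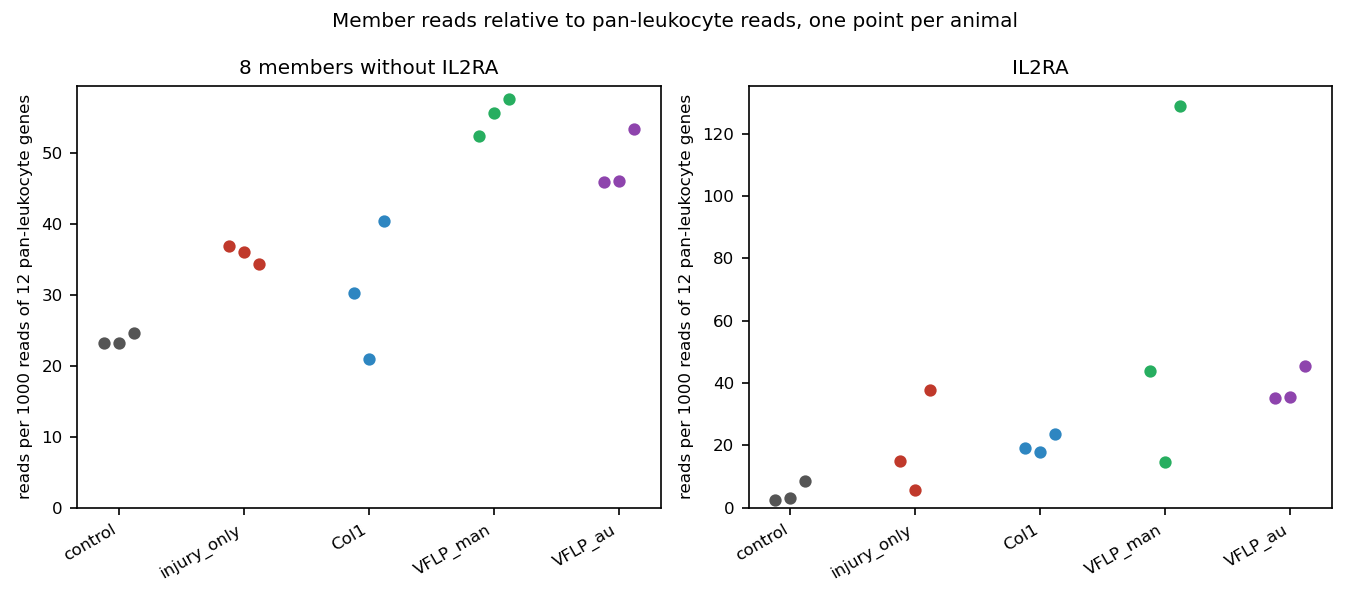
Reads per 1000 reads of 12 pan-leukocyte genes (y axis) in the 5 groups, for the 8 members other than IL2RA and for IL2RA, with 1 point per animal. For the 8 genes the VFLP_man animals lie between 52.4 and 57.6 and the VFLP_au animals between 45.9 and 53.4, above the 9 animals of the other groups.

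Left and right folds of an animal were compared within 14 animals with both folds in 1 batch. Of the 8 genes tested 0 differed by edgeR (0 at an unadjusted p under 0.05, and 0 of the 3 for which DESeq2 gave an adjusted p), against 0% of all genes, and CTLA4 was too low for this test. Which side was higher varied by animal: the right was higher in 9 of 15 animals for IL2RB and in 5 of 15 for IL2RA. In control, LCK was lower in the right fold of every animal, with 13, 0 and 4 reads against 32, 16 and 31 in the left. The test of whether the side difference varied among the groups called 0 of 8 by edgeR (1 at an unadjusted p under 0.05), against 6.39% of all genes, and 1 by DESeq2, which was LCK (edgeR adjusted p = 0.087). DESeq2 called 4285 of 16819 genes in that test.

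**Figure D5:**
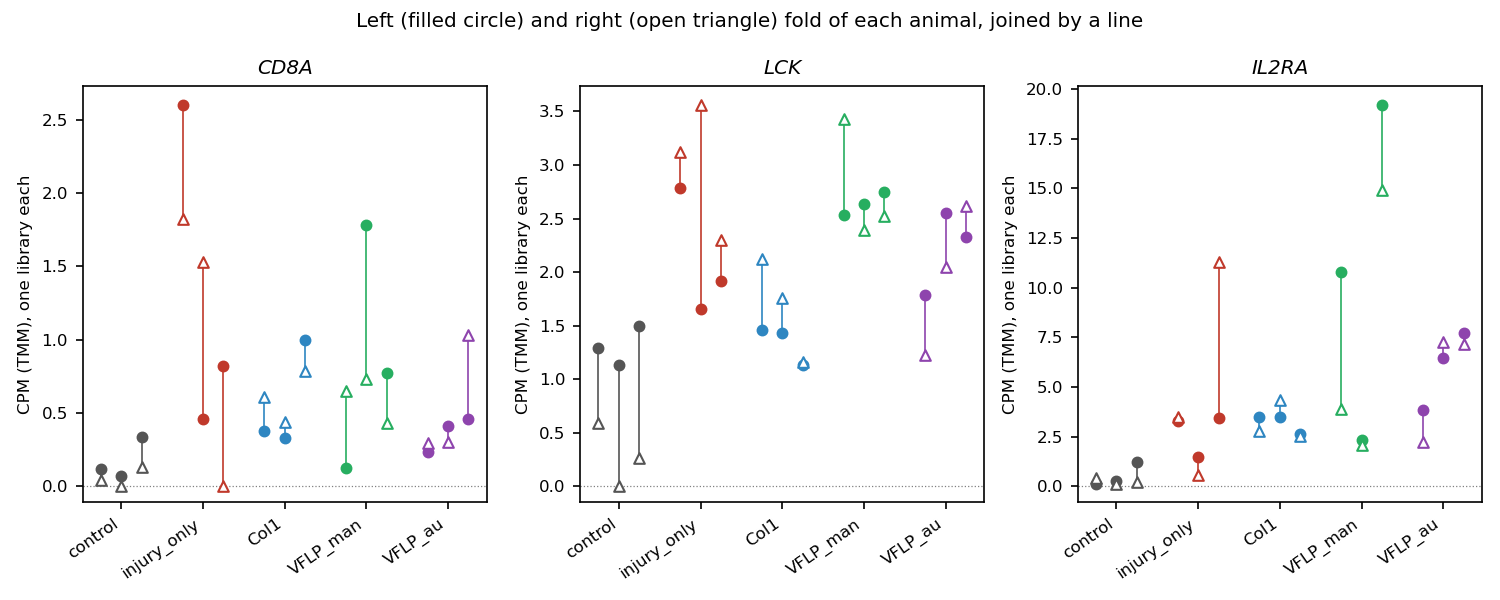
Level in CPM (y axis) of CD8A, LCK and IL2RA in single libraries of the 5 groups, with filled circles for left folds, open triangles for right folds and a line joining the 2 folds of an animal. The 3 right control folds are low for LCK, at 0 to 0.592 CPM against 1.13 to 1.5 CPM in the left.

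Genes of 7 lists on T and NK cells other than the 9, chosen with earlier results known, were examined in the same way. LOC100356153 (CD3D) is counted among these. Of 120 genes listed, 102 were found and 88 tested. Between injury_only and control 11 rose and 8 fell, where 8.33% of all genes rose and 13.7% fell, and the median log2 fold change was 0.55 against 0.02 over all genes. Against control, 5 rose and 8 fell with Col1, 19 rose and 11 fell with VFLP_man and 12 rose and 9 fell with VFLP_au. Over all genes 13.5%, 16.7% and 10.8% rose and 18.6%, 20.5% and 16.7% fell in that order. Against injury_only, 1 gene fell with VFLP_man and none passed with the other 2.

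Of 4 tested genes of the receptor complex other than the members, 0 passed between injury_only and control, with a median log2 fold change of 0.64. The invariant chain CD3G stood at a mean of 0.134 ± 0.0749 CPM in control and 0.231 ± 0.127 CPM in injury_only (SD, n = 3, adjusted p = 0.6), and the coreceptor CD4 at 0.198 ± 0.196 and 0.353 ± 0.153 CPM (adjusted p = 0.65). Of 6 tested cytotoxic and NK genes, 2 rose. They were CST7, an inhibitor of granule proteases, at 0.148 ± 0.093 CPM in control and 1.88 ± 0.314 CPM in injury_only (adjusted p = 0.0026), and SLAMF7, a receptor also found on plasma cells, at 0.144 ± 0.0832 and 0.462 ± 0.25 CPM (adjusted p = 0.037). The chemokine CCL5 stood at 0.308 ± 0.169 and 1.08 ± 0.352 CPM and did not pass (adjusted p = 0.089).

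Of 17 tested genes of costimulation and inhibition, 3 rose and 1 fell. CD27, CD6 and HAVCR2 rose (adjusted p = 0.026, 0.039 and 0.046), while CD96 fell by 2.32 on the log2 scale (adjusted p = 0.041). Of 16 transcription factors, 1 rose and 3 fell. FOXP3, the factor that defines regulatory T cells, rose from 0.092 ± 0.0498 to 0.473 ± 0.081 CPM (log2 fold change 2.15, adjusted p = 0.016). TBX21, ETS1 and GATA3 fell by 2.22, 1.03 and 0.92 on the log2 scale (adjusted p = 0.04, 0.026 and 0.044), and ETS1 and GATA3 are also expressed in endothelium and epithelium.

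Of 16 tested signalling genes, 2 rose and 1 fell. SH2D2A, an adaptor protein of T cells, rose (adjusted p = 0.036), and PRKCQ, which muscle also expresses, fell by 1.98 on the log2 scale (adjusted p = 0.012), standing at 86 ± 35.6 CPM in control. Of 10 genes of the interleukin 2 family, IL7 rose (adjusted p = 0.0096) and STAT5B and IL15RA fell (adjusted p = 0.0019 and 0.043). Of 19 homing and residence genes, CCR6 and CCL21 rose (adjusted p = 0.022 and 0.036) and ITGA1 fell (adjusted p = 0.013).

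Markers of other cells moved in the same comparison. Over all genes 8.33% rose and 13.7% fell. Of 12 pan-leukocyte genes 3 rose and 0 fell, and of 13 B and plasma cell genes 4 rose and 0 fell. Of 13 macrophage genes 1 rose and 2 fell. Of 7 dendritic cell genes and of 9 mast cell and granulocyte genes 0 passed. Of 24 muscle genes 13 fell and 0 rose, of 15 fibroblast genes 7 fell, and of 13 endothelial genes 4 fell. Of 12 secretory epithelium and gland genes 4 rose, with a summed level of 661 to 8570 CPM in control and 19300 to 43200 CPM in injury_only. Of 14 ciliated epithelium genes 3 rose, with a summed level of 8.02 to 131 CPM in control and 218 to 993 CPM in injury_only. Neither sum overlapped, and the part of these cells in the members' results was not tested. The summed B and plasma cell level was 149 to 217 CPM in control and 160 to 450 CPM in injury_only, with overlap. The summed cytotoxic and NK level was 1.14 to 1.43 CPM in control and 4.71 to 6.34 CPM in injury_only, without overlap. The receptor complex sum, members included, was also higher without overlap, at 1.46 to 2.89 CPM against 3.64 to 4.32 CPM. The receptor signalling sum, LCK included, was lower without overlap, at 98.3 to 193 CPM in control and 49.1 to 71.1 CPM in injury_only. The sums of the other T and NK lists overlapped.

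Over the 15 animals the 9 genes varied together to different degrees, given as a description with no test, since the points share groups and batches. The correlation of log2 CPM between members ranged from 0.315 for CD2 with CTLA4 to 0.883 for IL2RB with LCK (Pearson r, 15 animals). IL2RB followed the mean of the other 8 most closely (r = 0.95), then LCK (r = 0.918) and CD28 (r = 0.902), and CD8A least (r = 0.596). Among 12004 other genes, the 10 whose levels followed the mean of the members most closely were FGD2, FAIM, HSH2D, IL12RB2, RNF170, TMEM154, CNTRL, ARL6IP1, PABIR2 and TAPBPL, with r from 0.901 to 0.92. None of these 10 is in the T and NK lists examined here. IL12RB2, a chain of the interleukin 12 receptor, stood at a mean of 7.31 CPM in control and 25.1 CPM after injury alone, against 27.4 CPM with VFLP_man, 17.7 CPM with VFLP_au and 15.3 CPM with Col1.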

How the data were processed

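The authors deposited raw counts of reads per gene for each library, made with STAR 2.7.10b per the submitters' processing notes. The genome build and annotation were not given in the sources used here. The column for the second read's strand was used, and 4 entries that name no gene (23.2% to 44.7% of reads in a library) were left out. Libraries had been made from 100 ng of RNA with the KAPA mRNA HyperPrep kit, per the labels' protocols. Names and gene order came from the RefSeq table of assembly mOryCun1.1.

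Both folds of an animal were summed. Tests used edgeR 4.0.16 in R 4.3.3 (quasi-likelihood F test, TMM factors, filterByExpr with a minimum count of 10), with p values adjusted by Benjamini and Hochberg over all genes tested and a threshold of 0.05. Standard errors (SE) are approximate, each being the size of the log2 fold change divided by the root of F. Injury_only against control and comparisons among materials used 16 units with a batch term, injury_only animal 1 being divided by batch. Other comparisons used 15 animals with no batch term. Side tests used 28 libraries with the animal as a block. The scripts were tested on simulated data. No 2 libraries of a group agreed within sampling noise.

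Alternatives were DESeq2 1.42.0, its size factors, limma 3.58.1 voom, the replicate number as a block, no filter on low counts, left or right folds alone, unstranded counts, the batch term added or dropped, muscle level as a covariate, the groups compared alone, and single libraries or animals left out. Members and lists were chosen with earlier results of these data known. Named genes are the members, at most 4 others of each T and NK list (those passing in injury_only against control by smallest p, then smallest unadjusted p), and the 10 genes with a mean of at least 1 CPM whose log2 CPM (prior count 2) correlated best with the mean of the members' standardised log2 CPM. The values of 1 gene that this rule takes are not reported here.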

Additional observations from a re-analysis of the deposited data

Results flagged for a closer look

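Of 45 groups of 6 libraries (9 genes in 5 groups), 1 held a library far from the others, where chance would give about 1 in 20. CD28 stood at 0.0388 CPM in the left fold of VFLP_au animal 1, from 1 read, against 0.415 to 0.777 CPM in the other 5 libraries.

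In 3 cases every animal of a group had the higher level on the right and every control animal on the left. The mean log2 ratio of right over left was 0.769 in VFLP_au and -0.913 in control for CD247, a difference of 1.68. For LCK it was 0.489 in injury_only and -2.26 in control, a difference of 2.75. For LCK in Col1 it was 0.279, a difference of 2.54 from control. These differences between pairs of groups were not tested. The right control folds also had the higher muscle share of reads in all 3 animals, and its part was not tested.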

How the results depend on the processing

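Of the 9 genes, none changed direction between injury_only and control under any of the alternatives that could be fitted. With left folds alone the number of genes passing fell to 0 between injury_only and control (6 in the reported fit), 0 for Col1 (4), 3 for VFLP_man (6) and 1 for VFLP_au (7) against control, and 1 over the 5 groups (5), while over all genes 0, 18, 2867, 1706 and 1663 of 16601 passed. With right folds alone 6, 5, 6 and 6 passed against control in the same order and 4 over the 5 groups. Over all genes 26.2%, 46.8%, 45.5%, 34.4% and 34.2% passed there. With the muscle level as a covariate the numbers for the 9 genes were 1, 0, 0, 0 and 0 (over all genes 985, 0, 0, 0 and 0). With a batch term they were 0 for each material against control and 3 over the 5 groups (over all 17815 genes 0, 29, 0 and 1535). In the fit of only the groups compared, 3 passed between injury_only and control, and 2 each for Col1 and VFLP_au against control. Over all genes this was 12.3%, 22% and 16.2%. By limma voom 3, 1 and 3 passed (18.2%, 36.1% and 29.9% of all genes). With the control library of lowest total left out, 4 passed for VFLP_au (25.2% of all genes). DESeq2 called 1 gene in VFLP_man against Col1 and 1 in the test of side differences (0 by edgeR in both). Over all genes DESeq2 called 2.18% and 25.5%. With each animal left out in turn, 5 to 6 passed for VFLP_man against control (24.5% to 37.3% of all genes). The number passing ranged from 3 to 6 between injury_only and control, from 0 to 3 for Col1 and from 4 to 7 for VFLP_au against control. Over all genes the share passing in these last 3 comparisons ranged from 9.53% to 23.6%, from 20.2% to 34.3% and from 13.9% to 30.6%. The cause of these changes was not tested. Fewer genes and fewer reads entered the fit of either side alone, with 16601 genes tested for left folds and 16576 for right folds. Same-numbered animals of different groups did not deviate together (8 of 30 pairs above r = 0.1, from -0.501 to 0.362), so the numbers pair nothing. With the replicate block 6 genes passed between injury_only and control, and 3, 6 and 5 for Col1, VFLP_man and VFLP_au against control. Over all genes 18.6%, 29.8%, 34.8% and 25.1% passed with the block. Depth limits CTLA4, CD28, CD8A and CD3E most, with 6 to 17 reads over the 6 control libraries. Only 3 animals a group and the split of batches with the groups limit the comparisons of materials with control and with injury_only.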
